A study of Mus musculus with 9 samples.

Results

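The genes described here encode the proteins of the mitochondrial ribosome. They were taken as every gene of the array whose symbol starts with Mrpl, for the large subunit, or Mrps, for the small subunit, followed by a digit. This gave 76 of 19505 genes, 48 with a large-subunit name and 28 with a small-subunit name, and each was read by 1 probe set. The arrays measured total RNA of whole tibialis anterior, a fast muscle of the lower leg, from mice of 2 months on a C57/BL6 background. Each of 3 genotypes had 3 Clariom S arrays: control (MCU+/+/MCUb+/+), MCU knockout (MCU-/-/MCUb+/+) and MCUb knockout (MCU+/+/MCUb-/-). MCU is the pore of the channel that carries calcium into the mitochondrial matrix, and MCUb is its paralogue in the same complex. The series asks how MCUb bears on oxidative phosphorylation, and the comparisons below ask whether the messenger RNA of the mitochondrial ribosome differed with either deletion. The sources used here do not give the driver and tissue range of the deletions, the sex of the mice or any pooling. Whether the samples of 1 genotype are separate animals is not stated in the labels. The p-values below therefore reflect the variation among these samples, some of which may be technical.

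Mitochondria keep their own ribosomes, which translate the few messenger RNAs of mitochondrial DNA into core subunits of the respiratory chain and the ATP synthase. The ribosomal RNAs come from mitochondrial DNA, while all the ribosomal proteins are encoded in the nucleus, made in the cytosol and imported. Many of these proteins descend from bacterial ribosomal proteins and others are particular to mitochondria. Some names mislead: Mrps30 and Mrps18a sit in the large subunit, and Mrps36 is known as a subunit of the 2-oxoglutarate dehydrogenase complex.

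The deposited values are on a log2 scale with no unit, and differences below are log2 differences of group means with the standard error (SE) of the limma fit. Levels of different genes are not set against each other, since each probe set has its own response. Mcu itself read 10.38, 10.96 and 10.46 on the control arrays, 6.80, 6.98 and 7.06 on the MCU knockout arrays and 10.71, 11.06 and 10.81 on the MCUb knockout arrays. It fell by 3.65 in the MCU knockout (SE 0.20, limma adjusted p = 3.47e-05), which bears out the label of that group. Mcub was not analysed here. Of an array's probe sets, 45.3% to 45.9% exceeded its background limit of 5.87 to 5.92, the 95th percentile of its background features. The 11 fast-fibre markers were above that limit on all arrays, with a mean of 18.12 to 18.55 per array. The mean of 10 slow and IIa fibre markers was 10.28 to 10.37 on the control arrays, 9.22 to 10.01 on the MCU knockout arrays and 9.33 to 10.56 on the MCUb knockout arrays. The mean of 5 fibroblast markers was 10.14 to 10.67, 10.04 to 11.57 and 10.33 to 10.88 in the same order, and that of 6 endothelial markers 8.81 to 9.77, 9.27 to 9.37 and 8.40 to 9.08. The slow and IIa fibre markers did not go one way. In the MCU knockout 5 were above and 5 below control, with changes from -2.32 to 0.63. In the MCUb knockout 2 were above and 8 below. The counts below control were the same without control replicate 3, described next. In bulk tissue, fewer cells of a type and less RNA per cell cannot be told apart. The part of the fibre and cell-type markers in the values below was not tested.

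Control replicate 3 stood apart from the other arrays. Its mean correlation with them was 0.978, against up to 0.988 for the others. Its score on the first principal component was -70.8, against -20.3 to 21.9. Most counts and medians against control, and values of single genes that it moves most, are therefore also given without it. Counts of groups that do not overlap, and counts over both knockouts together, are not given without it. Uty and Kdm5d, which are Y-linked, had a mean of 7.24 on MCU knockout replicate 3, 7.56 on MCU knockout replicate 2 and 7.80 on MCUb knockout replicate 1, against 3.01 to 3.89 on the other 6 arrays. None of the 3 high arrays was a control, so the Y-linked level was not balanced over the genotypes. Among the 76 genes, 2 (Mrpl43 and Mrps2, 2.63%) were lower on all 3 of those arrays than on the other 6, beside 1.85% of all probe sets, and 0 were higher on all 3.

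The mitochondrial ribosomal protein genes were well detected in this muscle. Of the 76, 74 were above background on all 9 arrays. Mrps15, a small-subunit protein with a bacterial homologue, was above background on 4 arrays. Mrpl43, a large-subunit protein particular to mitochondria, was above background on none, at 3.35 to 3.88, and no fold is given for it. The genes varied little within a group. Their median standard deviation (SD) over the 3 arrays was 0.24 in controls, 0.16 in MCU knockouts and 0.18 in MCUb knockouts, beside 0.31, 0.25 and 0.23 over the probe sets above background on every array. The median SE of a log2 change was 0.21, so a 95% interval reached 0.46 to each side.

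**Figure D1:**
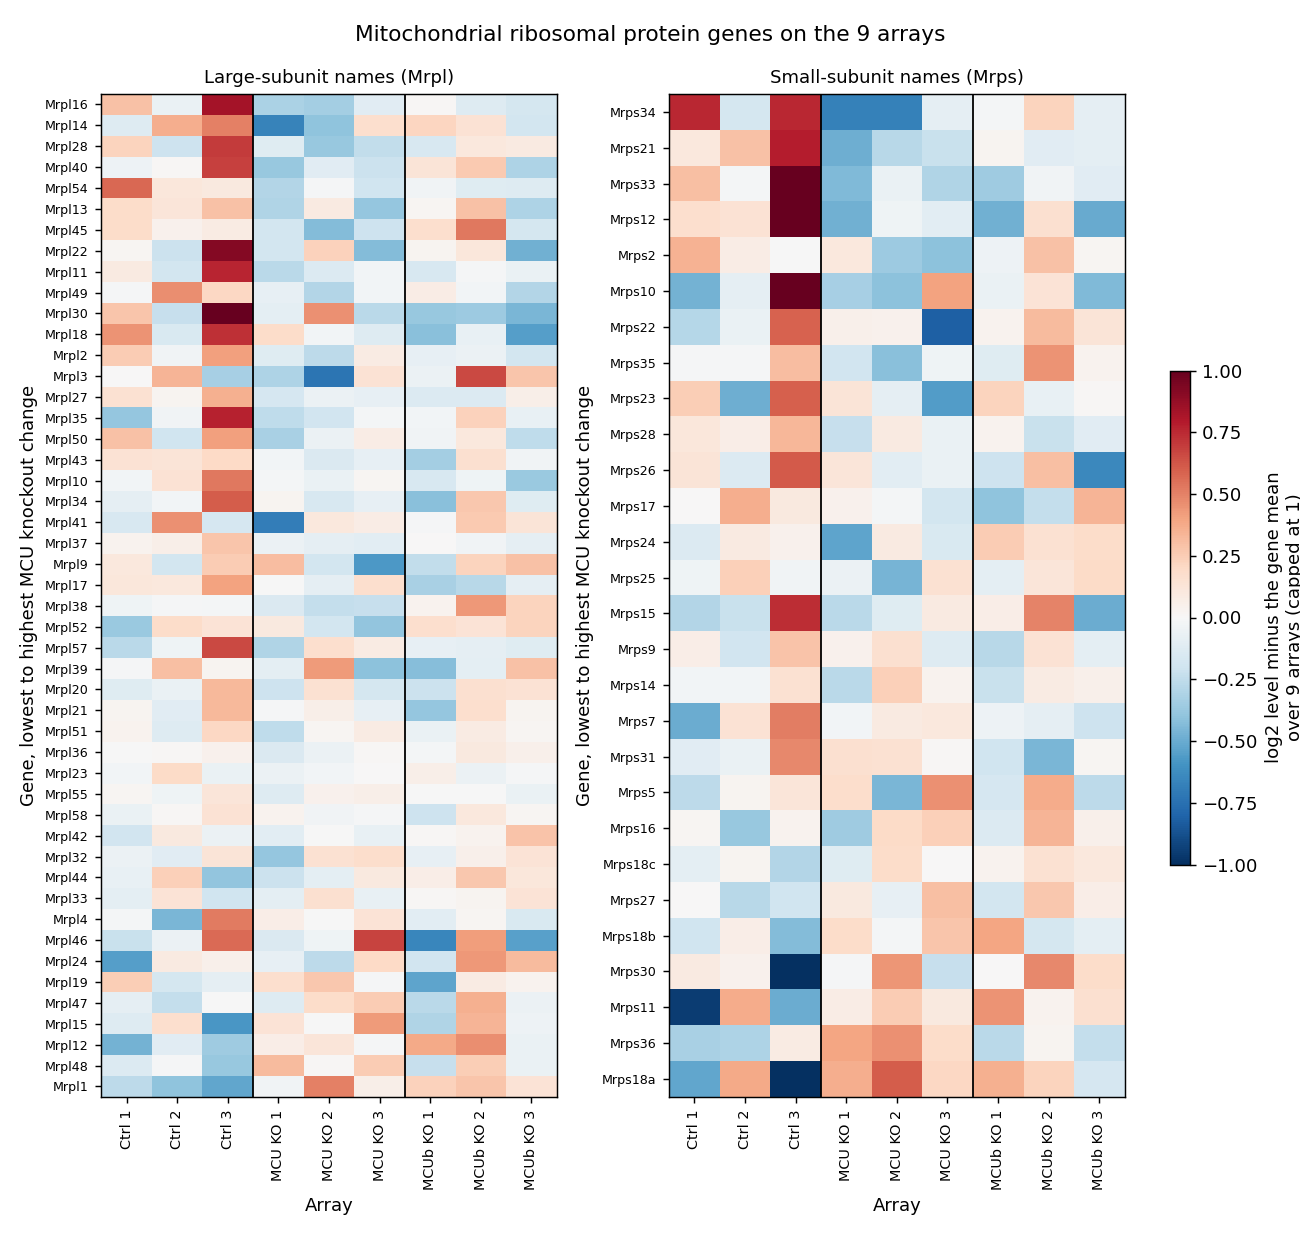
Log2 level of each of the 76 genes on each of the 9 arrays, minus the mean of that gene over the arrays, with colours capped at 1 either way; columns are arrays (Ctrl, control; KO, knockout), rows are genes ordered by the MCU knockout change. Most rows stay pale, and control replicate 3 holds many of the deepest colours, red for genes such as Mrps12 and Mrps33 and blue for Mrps18a and Mrps30.

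The promoters of these genes were examined for the letters of factors known to act on nuclear genes of mitochondria, since the genes are set side by side as 1 group. RefSeq windows on GRCm38.p6 were found for 67 of the 76 genes, 73 windows in all, each from 250 bases before the transcription start to 50 after it. Both strands were searched. The ETS letters CCGGAAG, which GABPA binds, stood in 25 of the 73 windows (34.25%), beside 11.84% of the 19143 windows of genes on the array and 8.858% of all 32851 windows. The YY1 letters AAGATGGC stood in 12 (16.44%), beside 3.103% and 2.749%. The palindromic core of the NRF1 site, without mismatch, stood in 3 (4.11%), beside 1.41% and 0.9711%. ETS and YY1 letters can share AAG, and in 0 of the 73 windows did they run together. Other letters were nearer the background: SP1 (GGGCGG) stood in 52.05% beside 47.88% of the windows of array genes, CCAAT in 39.73% beside 37.88%, the oestrogen-related receptor site AAGGTCA in 5.479% beside 3.928%, the E-box CACGTG in 9.589% beside 8.107%, and TATAAA in 6.849% beside 12.33%. These matches describe letters in a window, not bound sites.

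Promoters of 4 genes are shown: Mrps21 and Mrps12, at the low end of the MCU knockout changes, Mrpl1, at the high end in both knockouts, and Mrpl46, whose start lies 42 bases from that of Mrps11 on the other strand. Each runs 5′ to 3′ on the strand of its gene, from 250 bases before the start to 30 after it, and capitals mark ETS, YY1 or NRF1 letters on either strand. The windows are chr3:95871485-95871764 (minus strand) for Mrps21, chr7:28741792-28742071 (minus) for Mrps12, chr5:96209865-96210144 (plus) for Mrpl1 and chr7:78783060-78783339 (minus) for Mrpl46, in RefSeq GRCm38.p6.
Mrps21: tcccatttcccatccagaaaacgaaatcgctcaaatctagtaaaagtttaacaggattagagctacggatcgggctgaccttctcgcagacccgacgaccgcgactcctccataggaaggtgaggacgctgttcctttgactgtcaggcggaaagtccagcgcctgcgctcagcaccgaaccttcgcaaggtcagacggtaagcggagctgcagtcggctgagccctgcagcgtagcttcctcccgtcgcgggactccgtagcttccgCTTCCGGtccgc
Mrps12: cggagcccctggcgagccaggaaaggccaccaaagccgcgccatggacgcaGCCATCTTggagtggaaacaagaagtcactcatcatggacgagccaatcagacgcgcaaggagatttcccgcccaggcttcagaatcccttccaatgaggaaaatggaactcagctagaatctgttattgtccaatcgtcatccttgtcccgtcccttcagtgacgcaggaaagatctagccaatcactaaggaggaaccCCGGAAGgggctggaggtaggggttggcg
Mrpl1: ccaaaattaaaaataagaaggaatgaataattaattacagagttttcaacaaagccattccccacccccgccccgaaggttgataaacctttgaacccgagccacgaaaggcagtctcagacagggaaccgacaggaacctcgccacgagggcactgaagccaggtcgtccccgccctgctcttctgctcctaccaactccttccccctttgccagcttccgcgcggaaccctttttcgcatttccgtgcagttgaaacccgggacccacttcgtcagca
Mrpl46: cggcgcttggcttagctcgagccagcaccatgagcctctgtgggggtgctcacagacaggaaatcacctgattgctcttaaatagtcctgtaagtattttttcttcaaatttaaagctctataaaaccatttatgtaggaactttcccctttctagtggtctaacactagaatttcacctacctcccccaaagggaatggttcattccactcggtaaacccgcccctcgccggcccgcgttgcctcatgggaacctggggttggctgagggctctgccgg
The Mrps21 window holds the ETS letters once, read on the opposite strand just after the start. The Mrps12 window holds ETS letters at the start and YY1 letters, on the opposite strand, upstream of it (offset -199, the start base counted as 0). None of the 3 sets of letters stands in the stretches shown for Mrpl1 and Mrpl46. These examples do not link letters to the direction of change, which was not tested. The window of Mrps18a (0.92 in the MCU knockout) holds ETS and YY1 letters. That of Mrpl16 (-0.61) holds none of the 3 sets.

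Many of the genes share their promoter region with a neighbour. Of the 67 genes with a window, 27 (40.3%) had a gene on the other strand that starts within 1000 bases upstream or overlaps by up to 100 bases, beside 14.66% of 15691 genes on the array. The array measured 24 of these partners. By limma, 0 of them passed an adjusted p of 0.05 in any comparison, and their largest change was 0.57 in size. That change was Mrps11, paired with Mrpl46; both are named for this position and not for their values. Mrps11, a small-subunit protein with a bacterial homologue, differed from control by 0.50 in the MCU knockout and 0.57 in the MCUb knockout (SE 0.29, limma adjusted p = 0.590 and 0.626). Its controls read 10.19, 11.51 and 10.65 and its knockouts 11.18 to 11.59, so control replicate 2 lay among the knockouts. Mrpl46, of the central protuberance of the large subunit, differed by 0.07 and -0.35, or 0.31 and -0.12 without control replicate 3. Sars2, the mitochondrial seryl-tRNA synthetase and neighbour of Mrps12, differed by -0.08 and -0.03, while Mrps12 stood at -0.69 and -0.76.

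Without MCU, most mitochondrial ribosomal protein genes lay slightly below control, and none passed the test. The MCU knockout mean was below the control mean for 54 of 76 genes (71.1%), beside 52.4% of all 22206 probe sets tested and 52.5% of those above background on every array. The median change was -0.18 over the 76 genes and -0.02 over all probe sets. Large-subunit genes had a median of -0.18, with 37 of 48 below control, and small-subunit genes a median of -0.18, with 17 of 28. The changes ran from -0.93 for Mrps34 to 0.92 for Mrps18a, and all 76 were under 1 in size.

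By limma, 0 of 76 genes passed an adjusted p of 0.05 (lowest 0.314), beside 0.14% of all probe sets. At an unadjusted p under 0.05, 3 were higher (3.95%, beside 4.76% of all probe sets) and 6 lower (7.89%, beside 5.35%). All 3 MCU knockout arrays lay above all 3 controls for 4 genes (5.26%, beside 6.08%) and below them for 14 (18.4%, beside 7.33%), Mrpl43 with its level below background among them. The shares of genes called by p were thus near those of the whole array. The share that stood apart downward was larger than that of all probe sets and than the 9.48% of those above background on every array. It was smaller than the 31.1% of cytosolic ribosomal protein genes. That count is not given without control replicate 3. Without control replicate 3 the median was -0.04, beside 0.00 over all probe sets and -0.02 over those above background on every array. Then 44 of 76 genes were below control (57.9%), beside 49.6% and 53.0% of these probe sets. At an unadjusted p under 0.05, 2 genes were then higher (beside 3.72% of all probe sets) and 3 lower (beside 4.18%).

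Control replicate 3 was high for many of these genes. It was the highest of the 9 arrays for 38 of 76 genes, beside 22.7% of all probe sets, 19.6% of those above background on every array, 41.0% of cytosolic ribosomal protein genes and 33.3% of nuclear respiratory chain genes. It exceeded both other controls by over 0.5 for 16 of the genes, Mrps12, Mrps33, Mrpl16 and Mrpl30 among them. It was under both by over 0.5 for 2, Mrps18a and Mrps30. Shares of all probe sets with such gaps were not computed. Control replicate 3 was the lowest of the 9 arrays for 10 of the 76 genes (13.2%), beside 17.9% of all probe sets. The median deviation of the large-subunit genes from their control means was 0.15 on this array and -0.05 and -0.09 on the other controls. On the MCU knockout arrays it was -0.21, -0.12 and -0.11, and on the MCUb knockout arrays -0.15, 0.07 and -0.11. Thus controls 1 and 2 overlapped the range of the MCUb knockouts and lay just above the 3 MCU knockouts. For the small-subunit genes the values were -0.10, -0.11 and 0.19 in controls, -0.08, -0.06 and -0.04 in MCU knockouts, and -0.13, 0.10 and -0.07 in MCUb knockouts, with the MCU knockouts above controls 1 and 2.

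**Figure D2:**
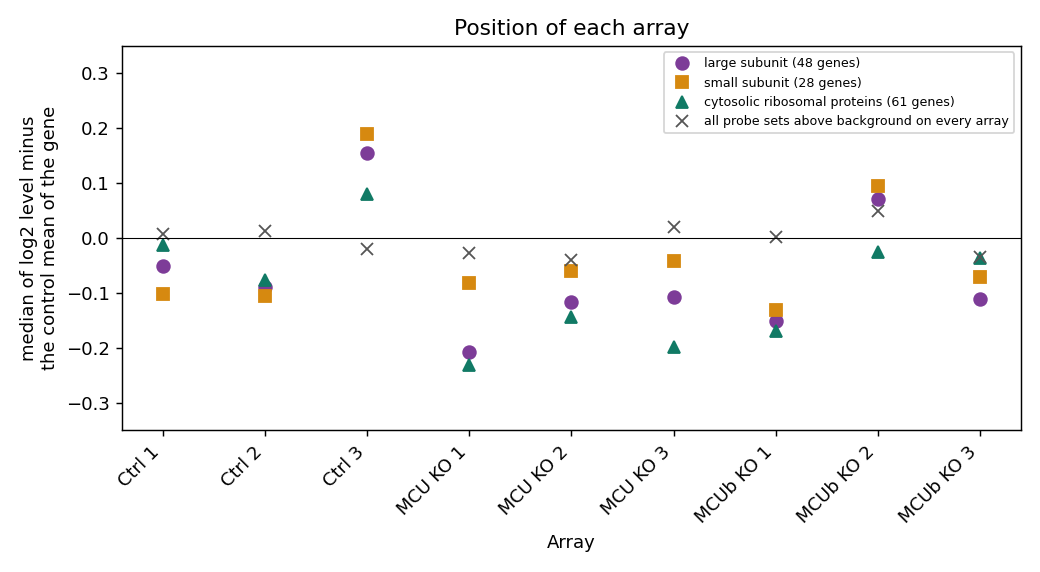
Median over the genes of a group of the log2 level on an array minus the control mean of the gene (y axis), for each of the 9 arrays (x axis). Circles are large-subunit genes, squares small-subunit genes, triangles cytosolic ribosomal protein genes and crosses all probe sets above background on every array; control replicate 3 stands highest for both subunits, at 0.15 and 0.19, while the crosses stay between -0.04 and 0.05.

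Among the small-subunit genes, Mrps34, Mrps21, Mrps33 and Mrps12 were the lowest in the MCU knockout. Mrps34 encodes a subunit particular to mitochondria that stabilises the small subunit. It read 11.56, 10.63 and 11.56 in controls, 10.13, 10.13 and 10.71 in MCU knockouts and 10.79, 11.03 and 10.72 in MCUb knockouts. The MCU knockouts overlapped the controls through MCU knockout replicate 3 and control replicate 2. The difference was -0.93 (SE 0.27, limma adjusted p = 0.341) in the MCU knockout and -0.41 in the MCUb knockout. With control replicate 3 left out, the MCU knockout value was -0.77.

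Mrps21 is the mitochondrial counterpart of bacterial S21. Its levels were 12.65, 12.83 and 13.33 in controls, 12.06, 12.26 and 12.32 in MCU knockouts, and 12.43 to 12.57 in MCUb knockouts. All 3 groups stood apart from each other, controls highest and MCU knockouts lowest. The MCU knockout difference was -0.73 (SE 0.20, a 1.65-fold lower mean, limma adjusted p = 0.314), the smallest p of the 76 genes, and the MCUb knockout difference -0.46 (SE 0.20, adjusted p = 0.605). The knockouts differed from each other by -0.27 (SE 0.20), which did not pass. When control replicate 3 was omitted, the values against control were -0.53 and -0.26.

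Mrps33, a small protein particular to the mitochondrial subunit, read 12.50, 12.18 and 13.23 in controls, 11.76, 12.13 and 11.90 in MCU knockouts and 11.84, 12.16 and 12.09 in MCUb knockouts. Both knockouts lay below all controls, narrowly for control replicate 2. The differences were -0.71 and -0.60 (SE 0.26 each, limma adjusted p = 0.412 and 0.590), and -0.41 and -0.31 without control replicate 3. Mrps12, of the decoding centre where codons are read, had 11.97, 11.95 and 12.94 in controls, 11.32, 11.76 and 11.69 in MCU knockouts and 11.32, 11.96 and 11.30 in MCUb knockouts. Control replicate 3 stood about 1 unit above the other controls. The differences of -0.69 and -0.76 (SE 0.29, adjusted p = 0.472 and 0.565) became -0.37 and -0.44 without it.

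Other small-subunit genes fixed as landmarks did not pass the test either. Mrps2, Mrps5 and Mrps7, which have bacterial homologues, differed by -0.36, 0.10 and 0.00 in the MCU knockout and by -0.05, 0.02 and -0.17 in the MCUb knockout. Mrps16 and Mrps22, both mutated in human mitochondrial disease, differed by 0.13 and -0.32 in the MCU knockout and by 0.19 and 0.08 in the MCUb knockout. Over the 8 arrays besides control replicate 3, Mrps2 stood at -0.43 and -0.13, Mrps22 at -0.06 and 0.34 and Mrps7 at 0.23 and 0.06. Without control replicate 1, Mrps7 in the MCU knockout turned to -0.27.

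Among the large-subunit genes, those at the peptidyl transferase centre, where peptide bonds form, were all below control in the MCU knockout: 4 of 4 (Mrpl2, Mrpl3, Mrpl16 and Mrpl27), with a median of -0.31. Mrpl16 read 12.07, 11.70 and 12.60 in controls, 11.46, 11.44 and 11.66 in MCU knockouts and 11.78, 11.65 and 11.60 in MCUb knockouts. The MCU knockouts lay below every control, by a margin smaller than the spread among the controls. The difference was -0.61 (SE 0.23, limma adjusted p = 0.416) in the MCU knockout and -0.45 in the MCUb knockout, and -0.37 and -0.21 without control replicate 3. Mrpl2 differed by -0.31 and -0.32.

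At the stalk that recruits translation factors, 4 of 5 listed genes were measured, with medians of -0.30 and -0.33 in the MCU and MCUb knockouts. They did not go one way. Mrpl54, a stalk protein particular to mitochondria, read 7.36, 6.90 and 6.88 in controls, 6.49, 6.78 and 6.59 in MCU knockouts and 6.66 to 6.75 in MCUb knockouts, all below the controls. Its differences were -0.43 and -0.35 (SE 0.19, limma adjusted p = 0.476 and 0.637). Mrpl10 differed by -0.24 and -0.41, and Mrpl11, of the stalk base, by -0.37 and -0.30. Without control replicate 3 they stood at -0.08 and -0.25 (Mrpl10) and at -0.10 and -0.03 (Mrpl11). Mrpl12, the L7/L12 protein itself, was on the other side: 10.33, 10.68 and 10.44 in controls, 10.86, 10.92 and 10.78 in MCU knockouts and 11.17, 11.26 and 10.73 in MCUb knockouts. Both knockouts lay above all controls, with differences of 0.37 and 0.57 (SE 0.19, adjusted p = 0.550 and 0.535).

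Mrpl1, of the stalk through which spent tRNA leaves, was the other gene above all controls in both knockouts. Its levels were 8.91, 8.77 and 8.65 in controls, 9.13, 9.67 and 9.22 in MCU knockouts and 9.40, 9.45 and 9.31 in MCUb knockouts. The differences were 0.57 and 0.61 (SE 0.19, limma adjusted p = 0.380 and 0.534), and 0.51 and 0.55 without control replicate 3.

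Mrps18a, a large-subunit protein despite its name, had the highest change in the MCU knockout and the widest range of controls. It read 11.92, 12.82 and 11.01 in controls, 12.80, 13.05 and 12.65 in MCU knockouts and 12.80, 12.66 and 12.28 in MCUb knockouts. Control replicate 2 lay among the knockouts. The difference of 0.92 (SE 0.37, limma adjusted p = 0.453) became 0.46 without control replicate 3. Mrps30, also of the large subunit, differed by 0.36 and 0.51, and by 0.00 and 0.16 without that control. Grouping all genes by structure instead of name, 50 large and 25 small with Mrps36 left out, gave medians of -0.16 and -0.20 in the MCU knockout and -0.08 and -0.06 in the MCUb knockout. With control replicate 3 left out, these were -0.07 and -0.02 in the MCU knockout and -0.01 and 0.06 in the MCUb knockout.

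**Figure D3:**
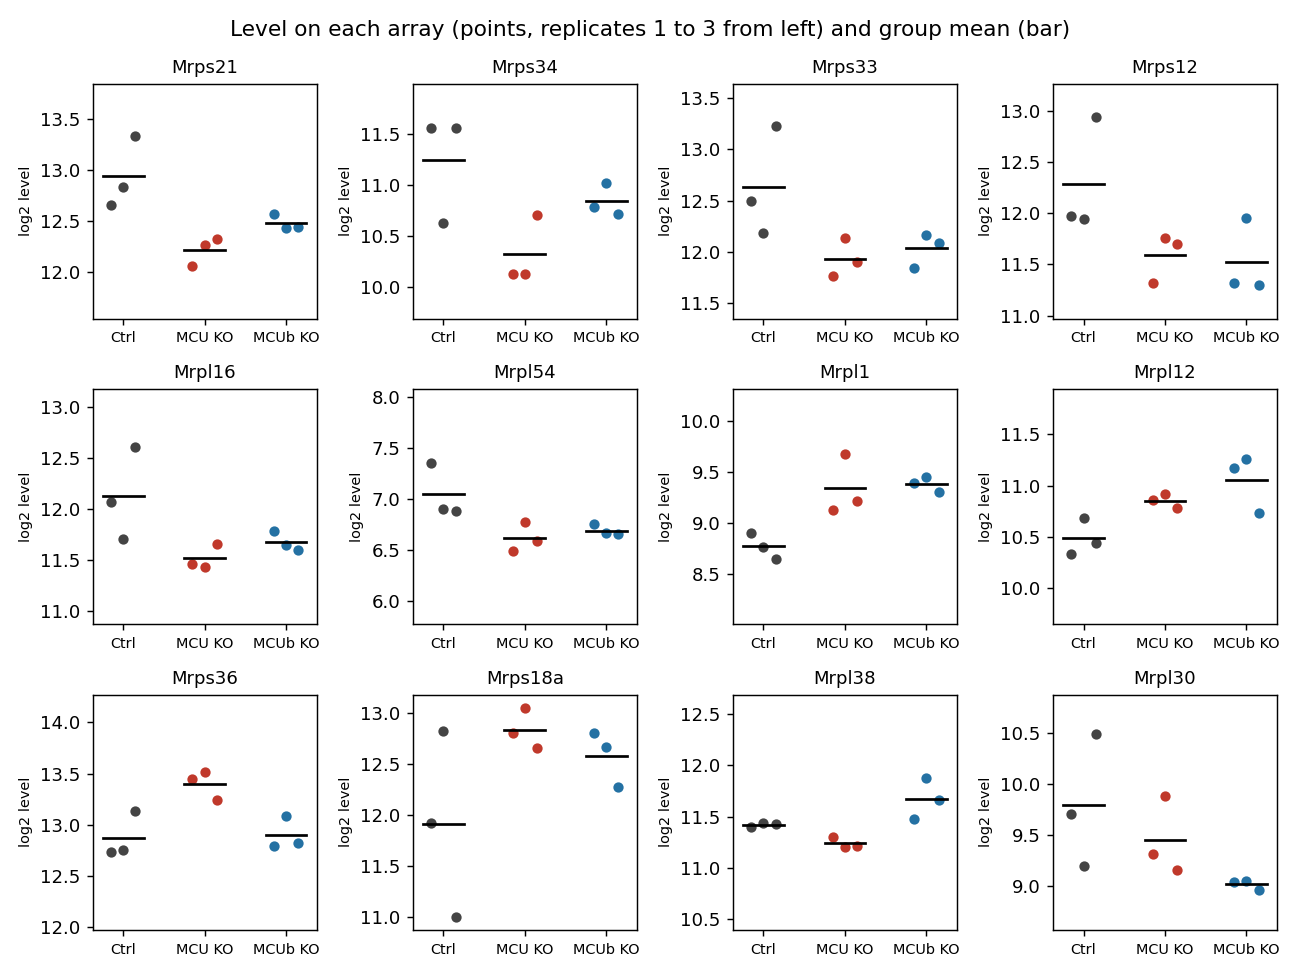
Log2 level (y axis) of 12 genes on each array, with the groups on the x axis, replicates 1 to 3 as points from left to right and the group mean as a bar; every panel spans the same range of log2 units. Mrps21 and Mrps33 show both knockouts below the controls, and Mrpl1 and Mrpl12 show both above. Control replicate 3 is the highest control for Mrps12, Mrps33, Mrpl16 and Mrpl30 and the lowest for Mrps18a.

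Without MCUb, the genes lay closer to control. The mean was below control for 46 of 76 (60.5%), beside 54.0% of all probe sets and 49.5% of those above background on every array, and the median was -0.06 beside -0.03 over all probe sets. Large-subunit genes had a median of -0.11, with 31 of 48 below control, and small-subunit genes a median of -0.05, with 15 of 28. The changes ran from -0.77 for Mrpl30 to 0.66 for Mrps18a. By limma, 0 of 76 passed an adjusted p of 0.05 (lowest 0.534), beside 0.0225% of all probe sets. At an unadjusted p under 0.05, 2 were higher (2.63%, beside 3.9%) and 6 lower (7.89%, beside 4.21%). The groups did not overlap for 5 genes higher (6.58%, beside 5.73%) and 9 lower (11.8%, beside 7.02%). When control replicate 3 was omitted, the median was 0.00, beside -0.01 over all probe sets. Then 37 of 76 genes were below control (48.7%), beside 51.7% of all probe sets and 50.9% of those above background on every array. By limma, 2 genes were then higher at an unadjusted p under 0.05 (beside 2.92% of all probe sets) and 0 lower (beside 3.33%).

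The genes lowest in the MCUb knockout were partly other ones. Mrpl30 read 9.70, 9.19 and 10.48 in controls, 9.32, 9.88 and 9.15 in MCU knockouts and 9.04, 9.05 and 8.96 in MCUb knockouts. The MCUb knockouts were tight and below every control. The difference was -0.77 (SE 0.30, limma adjusted p = 0.566), or -0.43 without control replicate 3. In the MCU knockout it was -0.34, and 0.00 without that control. Mrpl18, of the central protuberance, differed by -0.69 (SE 0.24, adjusted p = 0.546), and Mrpl17, at the exit of the nascent peptide, by -0.44 (SE 0.18, adjusted p = 0.570). In the MCU knockout Mrpl18 stood at -0.33 and Mrpl17 at -0.18, and the direct tests of the knockouts gave 0.36 and 0.26, neither past the threshold. Over the 8 arrays besides control replicate 3, Mrpl18 stood at -0.50 and -0.14 and Mrpl17 at -0.34 and -0.09 in the MCUb and MCU knockouts.

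The 2 knockouts were measured against the same controls, so their values are given side by side only. Both means were below control for 41 of 76 genes and above it for 17. The shares of all probe sets for these counts were not computed. In the MCU knockout alone 44 were below control without control replicate 3, and in the MCUb knockout alone 37. All arrays of both knockouts stood apart from all controls for 7 genes. Mrpl1 and Mrpl12 were higher in both (2 of 76, beside 1.9% of all probe sets), and Mrps21, Mrps33, Mrpl54 and Mrpl37 were lower in both (4 of 76, beside 2.23%). The knockouts of Mrpl38 lay on opposite sides (1 of 76, beside 0.113%). Mrpl37, particular to the mitochondrial large subunit, differed by only -0.21 and -0.16 (SE 0.16), and by -0.13 and -0.09 without control replicate 3. Its controls read 16.32, 16.34 and 16.56, and its knockouts 16.18 to 16.29.

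**Figure D4:**
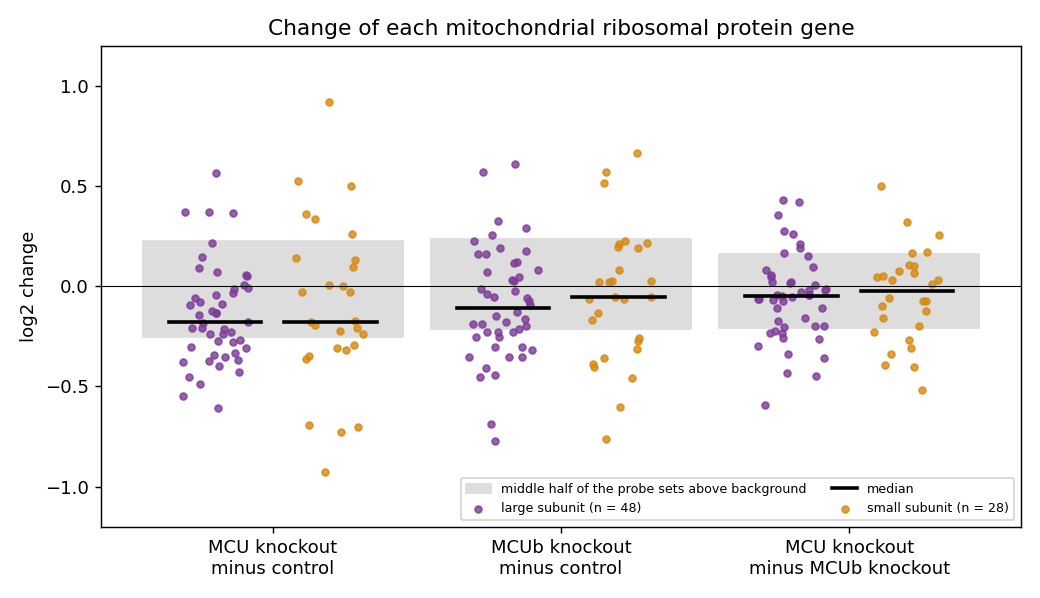
Log2 change (y axis) of each gene in the 3 comparisons (x axis), purple for the 48 large-subunit and orange for the 28 small-subunit genes, with a bar at the median and a grey band over the middle 50% of probe sets above background. In the MCU knockout comparison both medians stand at -0.18, while in the comparison of the knockouts they stand at -0.05 and -0.02.

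Set directly against each other, the knockouts differed little. The MCU knockout mean was below the MCUb knockout mean for 45 of 76 genes (59.2%), beside 47.7% of all probe sets and 53.1% of those above background on every array, with a median of -0.05 beside 0.01 over all probe sets. By limma, 0 of 76 passed an adjusted p of 0.05 (lowest 0.742), beside 0.158% of all probe sets. At an unadjusted p under 0.05, 1 gene was higher in the MCU knockout (1.32%, beside 2.68%) and 2 were lower (2.63%, beside 3.02%). The groups did not overlap for 4 genes higher (5.26%, beside 6.59%) and 7 lower (9.21%, beside 6.19%). Counts at these thresholds were near those of the whole array.

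Mrps36, the oxoglutarate dehydrogenase subunit with a ribosomal name, was the gene higher. It read 12.73, 12.75 and 13.14 in controls, 13.45, 13.51 and 13.24 in MCU knockouts and 12.79, 13.09 and 12.82 in MCUb knockouts. The MCU knockouts lay above the other 6 arrays. The difference was 0.53 from control (SE 0.19, limma adjusted p = 0.408) and 0.50 from the MCUb knockout (SE 0.19, adjusted p = 0.742), and 0.66 from control without control replicate 3.

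The lower genes were Mrpl38 and Mrpl45. Mrpl38, of the central protuberance, had controls at 11.40, 11.43 and 11.42, MCU knockouts at 11.30, 11.21 and 11.21, and MCUb knockouts at 11.48, 11.88 and 11.66. The controls were the tightest and sat between the knockouts. The knockouts differed by -0.43 (SE 0.17, limma adjusted p = 0.780). Mrpl45, which anchors the ribosome to the inner membrane at the peptide exit, read 11.29, 11.15 and 11.18 in controls, 10.92, 10.67 and 10.90 in MCU knockouts and 11.28, 11.63 and 10.93 in MCUb knockouts. The MCU knockouts were below every other array, with a difference of -0.45 from the MCUb knockout (SE 0.20, adjusted p = 0.867) and -0.38 from control. Mrpl3, mutated in a human cardiomyopathy, had the most negative difference, -0.59 (SE 0.28, adjusted p = 0.877), with groups that overlap.

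By place in the ribosome, the group medians in the MCU knockout lay between -0.31 and -0.09. They were -0.31 at the peptidyl transferase centre (4 genes), -0.30 at the stalk (4), -0.18 at the central protuberance (5) and -0.09 at the peptide exit (8). Large-subunit genes with a bacterial homologue (30) had a median of -0.20 and those particular to mitochondria (20) one of -0.14. For the small subunit the medians were -0.18 (15 genes) and -0.26 (10). In the MCUb knockout these groups had medians of -0.28, -0.33, -0.19, 0.02, -0.11, -0.04, -0.06 and -0.02 in the same order. Without control replicate 3 the MCU knockout medians were -0.29, -0.09, -0.14, -0.10, -0.03, -0.14, 0.06 and -0.06, and those of the MCUb knockout -0.19, -0.14, 0.04, 0.02, -0.02, 0.05, 0.06 and 0.04. The direction thus turned with that array for small-subunit genes with a bacterial homologue in both knockouts, and in the MCUb knockout also for the central protuberance and both groups particular to mitochondria.

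**Figure D5:**
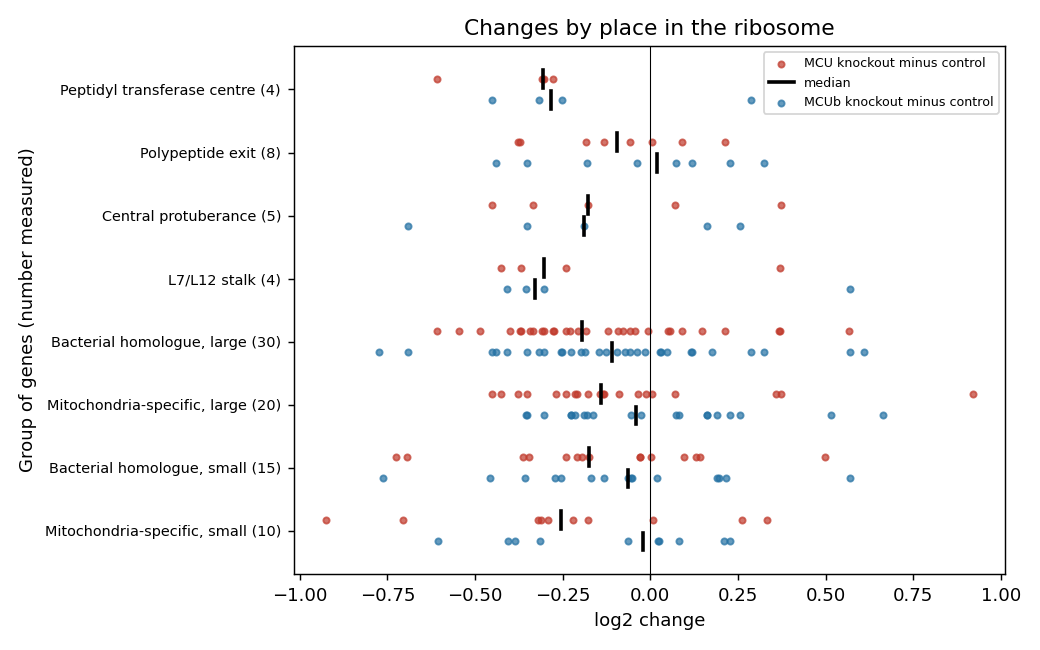
Log2 change (x axis) of the genes of 8 groups by place or ancestry in the ribosome (y axis, number measured in brackets), red for the MCU knockout and blue for the MCUb knockout, each minus control, with a bar at the median. All 4 genes of the peptidyl transferase centre lie below 0 in the MCU knockout, and the larger groups spread to both sides of 0.

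The size of difference these arrays could call bears on the counts of 0. At the median SE of the 76 genes, a log2 change had to reach 1.30, 1.59 and 1.27 in the 3 comparisons to pass, and no gene reached 1. The 95% interval lay within 1 either way for 64 genes in the MCU knockout, 64 in the MCUb knockout and 70 between the knockouts. Changes of more than 2-fold were thus outside the intervals of most of these genes, while changes of the size of the medians were not detectable for a single gene with 3 arrays a group.

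A component of the same ribosome that carries no Mrp name did pass the test. Gadd45gip1 (chromosome 8), also known as CRIF1, sits in the large subunit near the peptide exit. It read 8.52, 8.91 and 8.59 in controls, 6.92, 7.15 and 6.77 in MCU knockouts and 8.64, 8.48 and 8.42 in MCUb knockouts. The MCU knockouts lay below the other 6 arrays by more than 1 unit. It fell by 1.73 against control (SE 0.19, a 3.31-fold lower mean, limma adjusted p = 0.00336) and differed by -1.56 from the MCUb knockout (SE 0.19, adjusted p = 0.00551). Against control it stood at -1.77 without control replicate 3. The call between the knockouts was lost without MCU knockout replicate 3, with -1.48 and an adjusted p of 0.0501. In the MCUb knockout the difference from control was -0.16. The other listed components, Dap3, Ptcd3 and Chchd1 of the small subunit, differed by 0.08, 0.10 and -0.10 in the MCU knockout and by 0.01, 0.26 and -0.08 in the MCUb knockout. With control replicate 3 left out, these values lay between -0.02 and 0.14.

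Genes that build and serve the mitochondrial ribosome did not pass the test either. By limma, 0 genes of these lists passed an adjusted p of 0.05 in any comparison. Above background on all arrays were 23 of 27 assembly factors, with 1 on none, and 13 of 14 translation factors. Of 27 assembly factors, 15 were below control in the MCU knockout, with a median of -0.12, and 1 was higher and 2 lower at an unadjusted p under 0.05 (3.70% and 7.41%, beside the 4.76% and 5.35% of all probe sets). When control replicate 3 was omitted, the direction turned: the median was 0.03, with 11 of 27 below control. By limma 2 were then higher and 0 lower at that p, beside 3.72% and 4.18% of all probe sets. Mtg1, a GTPase of large-subunit assembly, differed by 0.76 (SE 0.27, adjusted p = 0.404), and Noa1, another GTPase of ribosome assembly, by 0.95 in the MCUb knockout (SE 0.23, adjusted p = 0.469). Of 14 translation factors, 8 were below control in the MCU knockout, with a median of -0.13 and 1 higher and 2 lower at that p (7.14% and 14.3%). Over the 8 arrays besides control replicate 3, the median was -0.04, with 8 of 14 below control. Beside 3.72% of all probe sets higher and 4.18% lower at that p by limma, 0 of these factors were called. Among them were the initiation factor Mtif2 at -0.70 (SE 0.24, adjusted p = 0.383; -0.49 without that control) and Oxa1l, which inserts new proteins into the inner membrane, at -0.50 (SE 0.19, adjusted p = 0.418).

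For the mitochondrial tRNA synthetases the values depended on the same array. Only 13 of 19 were above background on all arrays, and 2 were above it on none. Of 19 synthetases, 9 were above control in the MCU knockout and 11 in the MCUb knockout, with medians of 0.00 and 0.15, and 2 and 3 were higher and 0 lower at an unadjusted p under 0.05 (10.5% and 15.8% higher, beside 4.76% and 3.9% of all probe sets). Without control replicate 3 the medians were -0.10 and 0.04, with 11 and 9 of 19 below control. Then 1 and 3 were higher at that p, beside 3.72% and 2.92% of all probe sets. Iars2, for isoleucine, differed by 0.53 and 0.76 (SE 0.21, limma adjusted p = 0.441 and 0.477), and by 0.34 and 0.56 without that control. Of 8 genes of mitochondrial DNA upkeep and transcription, 7 were above background on all arrays. Among the 8, 6 were above control in the MCU knockout and 5 in the MCUb knockout, with medians of 0.26 and 0.17. At the same p, 2 were higher in the MCU knockout, and 1 was higher and 1 lower in the MCUb knockout. With control replicate 3 left out, the medians were 0.18 and 0.11, with 5 of 8 above control in each. By limma 1 was then higher and 0 lower in each at that p, beside 3.72% and 2.92% of all probe sets higher. Tefm, an elongation factor of the mitochondrial polymerase, differed by 0.47 and 0.63 (SE 0.18, adjusted p = 0.436 and 0.518). Tfam, which packages mitochondrial DNA, differed by 0.80 in the MCU knockout, and by 0.36 without control replicate 3. Of 7 measured regulators of mitochondrial biogenesis, 5 were above background on all arrays and 1 on none. Among the 7, 5 were below control in each knockout, with medians of -0.47 and -0.32. In each, 2 were lower at that p (28.6%, beside 5.35% and 4.21% of all probe sets). When control replicate 3 was omitted, the medians were -0.46 and -0.26, again with 2 lower at that p in each (beside 4.18% and 3.33%). The coactivator Ppargc1b differed by -0.55 and -0.58 (SE 0.19, adjusted p = 0.388 and 0.534).

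The cytosolic ribosome, which makes every protein imported into mitochondria, had medians close to those of the mitochondrial one. Of 61 cytosolic ribosomal protein genes, 48 were below control in the MCU knockout, with a median of -0.17, and 38 in the MCUb knockout, with a median of -0.10. By limma 0 passed an adjusted p of 0.05, and in the MCU knockout 1 was higher and 8 lower at an unadjusted p under 0.05 (1.64% and 13.1%, beside 4.76% and 5.35% of all probe sets). In the MCUb knockout 3 were higher and 5 lower (4.92% and 8.20%, beside 3.9% and 4.21%). Over the 8 arrays besides control replicate 3, the medians were -0.14 and -0.03, with 47 and 36 of 61 below control. By limma 0 were then higher and 5 and 3 lower at that p, beside 4.18% and 3.33% of all probe sets lower. Rplp0, of the cytosolic stalk, differed by -1.10 in the MCU knockout (SE 0.22, adjusted p = 0.132). Of 84 nuclear genes of the respiratory chain and ATP synthase, 51 were below control in the MCU knockout, with a median of -0.06, and 0 passed an adjusted p of 0.05, with 1 higher and 5 lower at an unadjusted p under 0.05 (1.19% and 5.95%). Without control replicate 3 the median was -0.03, with 47 of 84 below control. By limma 0 were then higher and 2 lower at that p, beside 3.72% and 4.18% of all probe sets. Ndufa3, of complex I, differed by -1.05 (SE 0.19, adjusted p = 0.0831).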

How the data were processed

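Per the labels, total RNA was labelled with a 3′ IVT kit and hybridised to Clariom S mouse arrays. Each probe set has 1 deposited log2 value on each array. Per the submitters' processing notes the program was Affymetrix Expression Console. Its version, the log base and the normalization are not given in the sources used here, and the values were read as log2 from their range. How that normalization shaped the values is not known. Of 28846 values per array, 6640 of control features were left out, which left 22206 probe sets. The platform annotation gives 1 gene symbol for 19572, several for 0 and none for 2634. All 76 genes matched the RefSeq table of GRCm38.p6, which served for names and neighbours, since the build of the array design is not named.

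All probe sets entered 1 limma 3.58.1 fit (R 4.3.3) of 3 group means over the 9 arrays, with 6 residual and 5.06 prior degrees of freedom, two-sided and without covariates. The Benjamini-Hochberg adjustment ran over all 22206 probe sets. On data simulated from these arrays, 38%, 44% and 40% of changes of 1 in log2 were recovered in the 3 comparisons (MCU knockout and MCUb knockout, each with control, then the knockouts), and 84%, 88% and 86% of changes of 2. The simulation changed 50 probe sets at each size of 1, 2, 3 and 4 together. In the deposited values 31, 5 and 35 probe sets passed. More changed probe sets make the adjusted threshold easier to reach, so these shares may be too high for the deposited values. The number of arrays limits the precision.

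The genes and lists were chosen with earlier results of these data known. The text names, per comparison, the 10 genes with the smallest p, those apart from control in both knockouts, landmark genes, and of each related list the genes past the threshold or up to 2 of the smallest p. Genes named outside this rule are said to be, or are members of a fixed group or gap described as a whole. Alternatives were quantile normalization, median centring, leaving out dim probe sets, array weights, a robust prior with an intensity trend, a replicate block, a Y-linked covariate, fits of 2 groups alone, subunits by structure and leaving out each array.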

Additional observations from a re-analysis of the deposited data

Results flagged for a closer look

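Mrpl38, of the central protuberance of the large subunit, is listed because the knockouts moved to opposite sides of the controls: all 3 MCU knockout arrays lay below the 3 control arrays and all 3 MCUb knockout arrays above them. The change was -0.18 in the MCU knockout and 0.25 in the MCUb knockout. The direct limma test of the knockouts gave -0.43 (SE 0.17) with an adjusted p of 0.780, so the difference did not pass the threshold.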

How the results depend on the processing

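None of the 76 genes with an Mrpl or Mrps name passed an adjusted p of 0.05 in any of the 3 comparisons under the settings run. At an unadjusted p under 0.05 the MCU knockout comparison gave 9 genes, and 5 (without MCU knockout replicate 1) to 16 (without control replicate 2) with an array left out; the MCUb knockout comparison gave 8, and 2 (without control replicate 3) to 12 (without control replicate 2); the comparison of the knockouts gave 3, and 1 (without MCU knockout replicate 2) to 4 (without MCU knockout replicate 3). With an array left out, the large-subunit median ran from -0.22 to -0.08 in the MCU knockout, from -0.17 to -0.01 in the MCUb knockout and from -0.10 to -0.01 between the knockouts. The small-subunit median ran from -0.24 to 0.015, from -0.15 to 0.10 and from -0.08 to 0.01 in the same order, its highest value against control being the one without control replicate 3 in both knockouts. The small-subunit median in the MCU knockout was -0.068 with a Y-linked covariate and -0.023 with array weights. The large-subunit median there was -0.10 with the covariate and -0.12 with the weights. With an array left out, the MCU knockout value of Mrpl30 ran from -0.64 to 0.0027 (without control replicate 3), that of the synthetase Vars2 from -0.40 (without control replicate 3) to 0.39, and that of Mrps7 from -0.27 (without control replicate 1) to 0.23. Rplp0 passed in the MCU knockout without control replicate 2 (-1.31, adjusted p = 0.0326). Ndufa3 passed there with an intensity trend (adjusted p = 0.0119) or without control replicate 2 (adjusted p = 0.0496), and between the knockouts with the trend (adjusted p = 0.0297). The cause of these shifts was not tested. Samples with the same replicate number deviated together no more than others (correlations of -0.12 to 0.09 over 9 pairs, and -0.12 to 0.09 over 18 pairs of different number). The values thus gave no sign that the numbers pair them, but with 3 arrays a group a weak pairing could not be seen. A replicate block gave 8, 8 and 2 genes at an unadjusted p under 0.05 and 0 past the adjusted one, with large-subunit medians of -0.18, -0.11 and -0.05. The choice among probe sets gave no value, since each gene has 1.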
